A study of Saccharomyces cerevisiae with 40 samples.

Results

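The transcripts followed here were those of 9 genes of the DNA damage response of Saccharomyces cerevisiae: the checkpoint kinases RAD53 and DUN1, the 4 subunits of ribonucleotide reductase (RNR1, RNR2, RNR3 and RNR4), the transcription factor PLM2, and the repair enzymes MAG1 and PHR1. They were taken by gene symbol, and all 9 were measured on both array platforms, among 5540 named genes on a spotted cDNA chip (1 probe per member) and 5598 on an Agilent oligonucleotide array (15 probes in all, 2 per gene except DUN1, PLM2 and PHR1 with 1, and averaged per gene). Haploid BY4741 yeast (MATa, with deletions in his3, leu2, met15 and a ura gene that all strains share) was grown in synthetic complete medium and split into a culture with sodium arsenite (AsIII) and an untreated one. On the cDNA chip, poly(A) RNA of the parent strain was compared after 1 mM for 30 min (8 arrays, from 2 pairs of cultures) and after 100 μM for 30 min, 2 h and 4 h (4 arrays of a single culture pair each). On the Agilent array, total RNA was compared after 100 μM for 2 h in the parent (4 arrays, 2 dye-exchange pairs) and in strains without a transcription factor of the stress response, Yap1-null, Cad1-null, Rpn4-null and Arr1-null (2 arrays each, a dye exchange). The 4 null strains were also set against the parent without AsIII (2 arrays each). Each value is a log2 ratio, so that 1 is a doubling and -1 a fall to 50 percent, and each comes from a bulk culture, in which fewer cells at a stage of the cell cycle and less RNA per cell cannot be told apart.

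When DNA is damaged or replication stalls, the sensor kinase Mec1 activates Rad53, the effector kinase that halts the cell cycle and protects replication forks. Rad53 activates Dun1, which releases ribonucleotide reductase from the inhibitor Sml1 and releases several damage-inducible genes from the repressor Rfx1, so that more deoxynucleotides are made for repair. The reductase has a large subunit, Rnr1, or its damage-inducible paralog Rnr3, and a small subunit made of Rnr2 and Rnr4. Plm2 carries a forkhead-associated domain and is a paralog of Tos4, Mag1 is the glycosylase that removes alkylated bases such as 3-methyladenine, and Phr1 is the photolyase that uses light to split UV-induced pyrimidine dimers.

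The deleted genes were read first. In the untreated comparisons YAP1 stood at a log2 ratio of -4.35 in the Yap1-null strain, CAD1 at -4.75 in Cad1-null, RPN4 at -4.04 in Rpn4-null and ARR1 at -2.27 in Arr1-null. The 2 arrays behind the ARR1 value lay far apart, at -0.95 with the null RNA in Cy5 and -3.60 with it in Cy3. In the AsIII comparisons both RNAs came from the same strain, and YAP1, RPN4 and ARR1 lay near 0 in their own nulls (0.09, 0.10 and 0.11). CAD1 did not: on the AsIII arrays labelled Cad1-null it stood at 0.86 and 0.75 and was called up (log2 ratio 0.80, adjusted p = 7.86e-06), against -0.89 in the parent, so the ratio of this gene goes against the label of these arrays, and the cause was not tested. Every AsIII value given for Cad1-null is therefore that of arrays labelled so. The dye carried much of the signal where strains were alike: over all genes, the arrays of opposite dye correlated at r = -0.48 in untreated Yap1-null and r = -0.14 in untreated Cad1-null, against 0.82 to 0.92 in the AsIII comparisons on the Agilent array and 0.12 to 0.80 on the cDNA chip. The median log2 ratio of all genes lay between -0.10 and 0.07 in every comparison. Tests were moderated fits (limma) on the means of culture pairs or dye exchanges, with p-values adjusted over all genes of the platform and called under 0.05. A spread between pairs could be measured only at 1 mM on the cDNA chip and in the AsIII-treated parent on the Agilent array, and the other conditions were assumed to vary likewise. On the Agilent array the moderation gave every gene the same spread, so a gene that varied more than most between cultures has too small a p-value there. The labels do not say whether the parent's 2 dye-exchange pairs came from separate cultures, so p-values on the Agilent array may measure technical spread alone.

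At 1 mM for 30 min, 4 of the 9 genes rose and 1 fell (RAD53, PLM2, RNR4 and RNR2 up, PHR1 down), where 16.8% of all genes tested were called, 9.69% up and 7.09% down. RAD53 stood at 2.26, 2.78, 3.58 and 3.32 on the arrays of the first culture pair and at 1.75, 2.32, 1.46 and 2.64 on those of the second. Every array was well above 0, and the fitted rise was 5.72-fold (log2 ratio 2.52 ± 0.29 SE, adjusted p = 0.00804), rank 81 of 5540 genes ordered by log2 ratio. PLM2 ranged from 1.57 to 3.04 over the 8 arrays with a median of 2.48, and all 4 arrays of the first pair (2.79 to 3.04) lay above all 4 of the second (1.57 to 2.17). Its fitted rise was 5.13-fold (log2 ratio 2.36 ± 0.30 SE, adjusted p = 0.0105).

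Both small-subunit genes rose with them. RNR4 ranged from 1.04 to 2.31 with a median of 1.95 (3.42-fold, adjusted p = 0.00837), and RNR2 from 1.09 to 2.41 with a median of 1.55 (3.15-fold, adjusted p = 0.0141). The large-subunit genes did not pass the test. RNR3 stood at 0.86 (95% interval 0.25 to 1.46, adjusted p = 0.0651), above 0 on all but a single array of the second pair at -0.11, without which it passed (0.97, adjusted p = 0.0386). RNR1 stood at 0.32 (-0.32 to 0.96, adjusted p = 0.400), and its arrays spanned 0, from -0.30 to 1.20. The kinase gene DUN1 was above 0 on all 8 arrays, from 0.12 to 1.11, yet at 0.60 it missed the threshold (adjusted p = 0.127).

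The repair genes had ratios of opposite sign. PHR1 was below 0 on all 8 arrays, from -2.41 to -1.53 with a median of -2.08, and fell 4.09-fold (log2 ratio -2.03 ± 0.21 SE, adjusted p = 0.00673). MAG1 lay between 0.03 and 1.15 with a median of 0.89 (log2 ratio 0.70, 95% interval 0.15 to 1.24, adjusted p = 0.0819), and its 2 arrays near 0 were those of the first pair with the treated RNA in Cy5.

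**Figure D1:**
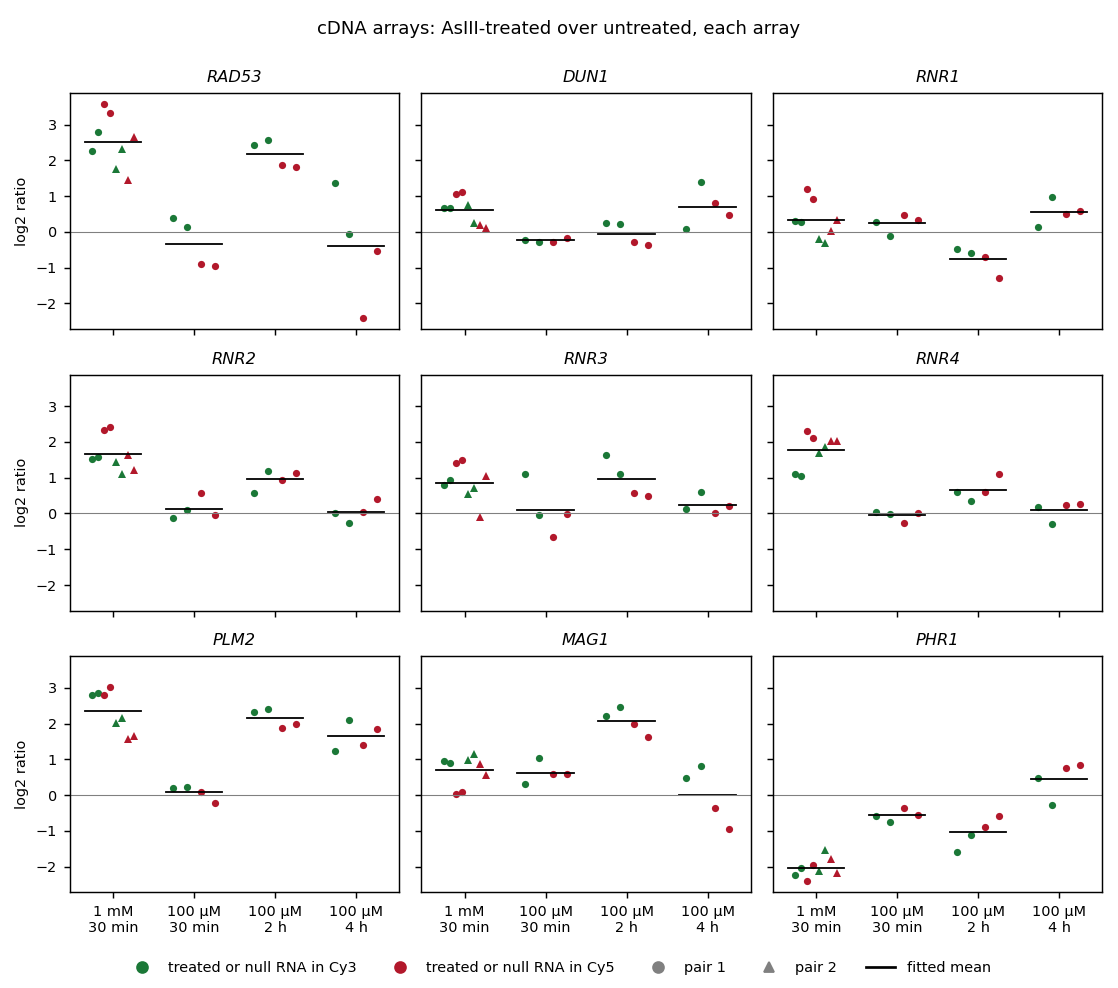
Log2 ratio (AsIII over untreated, vertical axis) of each gene on each cDNA array by dose and time (horizontal axis), with the dye of the treated RNA as colour, the culture pair as point shape and the fitted mean as a bar. RAD53, PLM2, RNR2 and RNR4 sit above 1 on all 8 arrays of the 1 mM exposure, PHR1 sits below -1.5 on them, and most points of the 100 μM exposure at 30 min lie around 0.

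At 100 μM the same 30 min gave no call. None of the 9 genes was called, and none of the 5540 genes was (0% called), although 146 genes had an unadjusted p under 0.05. The members lay between -0.56 for PHR1 and 0.63 for MAG1. RAD53 was at 0.40 and 0.13 with the treated RNA in Cy3 and at -0.89 and -0.95 with it in Cy5, so the sign of its ratio followed the dye. MAG1 was above 0 on all 4 arrays (0.30, 1.04, 0.60 and 0.58) and PHR1 below 0 on all 4 (-0.57, -0.74, -0.35 and -0.56).

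After 2 h at 100 μM, 2 of the 9 genes were called, both up, against 5.94% of all genes (3.75% up and 2.18% down). MAG1 stood at 2.20, 2.46, 1.99 and 1.62 on the 4 arrays and rose 4.19-fold (log2 ratio 2.07 ± 0.31 SE, adjusted p = 0.0344). RAD53 stood at 2.44, 2.56, 1.86 and 1.81 and rose 4.49-fold (log2 ratio 2.17 ± 0.40 SE, adjusted p = 0.0466), a call that robust moderation of the variances undid (adjusted p = 0.0555). For RAD53 this is close to the level after 1 mM for 30 min, and for MAG1 all 4 arrays exceeded every array of that exposure. PLM2 was as high as either, at 2.32, 2.41, 1.88 and 1.98, but fell just outside the threshold (log2 ratio 2.15 ± 0.42 SE, adjusted p = 0.0513). With any 1 of its 4 arrays left out it passed (adjusted p from 0.0432 to 0.0499). Its SE stayed at 0.42 in these fits, since the spread came from the 1 mM pairs alone. Without array 1 or 2 its ratio was lower (2.09 and 2.06), so these passes are no sign of a firmer rise of PLM2.

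DDI1, which codes for a ubiquitin shuttle protein and is transcribed away from MAG1 out of the interval between them, was also called at this time (3.90-fold up, adjusted p = 0.0466). TOS4, the paralog of PLM2, stood at -1.82 (adjusted p = 0.0885), a ratio of the opposite sign to that of PLM2. The other members did not pass. RNR2, RNR3 and RNR4 were above 0 on every array at 0.95, 0.96 and 0.67, RNR1 below 0 on every array at -0.77, PHR1 below 0 on every array at -1.04 (95% interval -1.78 to -0.31, adjusted p = 0.0955), and DUN1 near 0 at -0.05.

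By 4 h none of the 9 was called, when 3 of 5540 genes (0.0542%) were. PLM2 was the gene that stayed above 1, at 1.23, 2.09, 1.41 and 1.85 (log2 ratio 1.65, 95% interval 0.58 to 2.71, adjusted p = 0.253), rank 77 of 5540. MAG1 was at -0.01, its Cy3 arrays at 0.48 and 0.82 and its Cy5 arrays at -0.37 and -0.95. RAD53 was the most scattered value of the set, with arrays at 1.37, -0.06, -2.41 and -0.54, so neither its level nor its sign at 4 h was settled.

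The differences between doses and times were tested in their own right, and no gene on the chip passed in any of the 3 contrasts (0% called in each, with 791 to 1221 genes under an unadjusted p of 0.05). RAD53 was 2.84 higher at 1 mM than at 100 μM for 30 min (95% interval 1.59 to 4.09, adjusted p = 0.145), 2.50 higher at 2 h than at 30 min of 100 μM (1.05 to 3.94, adjusted p = 0.218) and 2.58 lower at 4 h than at 2 h (difference -2.58, interval -4.02 to -1.13, adjusted p = 0.0982). MAG1 moved from 2 h to 4 h by -2.07 (interval -3.17 to -0.98, adjusted p = 0.0921). With each array as a replicate, 6 members passed in each of these 3 contrasts, RAD53 among them, in a fit that counts arrays of the same 2 RNAs as separate samples. The share of all genes passing in that fit is not given here, so the count is no result about the members.

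On the Agilent array, 8 of the 9 genes were called in the AsIII-treated parent, 7 up and 1 down. This is close to the background, since 77.4% of all genes were called (34.7% up and 42.7% down), so the sizes tell more than the count. RAD53 stood at 4.07, 3.98, 4.24 and 4.48 on the 4 arrays, an 18.3-fold rise (95% interval of the log2 ratio 3.96 to 4.43) and rank 17 of 5598 genes. No other member came near it. RNR3, the damage-inducible large subunit, followed at 1.57, 1.51, 1.81 and 1.69 (3.13-fold, rank 235).

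RNR2 and RNR1 doubled or nearly so. RNR2 was at 0.66, 1.46, 0.72 and 1.09 (log2 ratio 0.98, 95% interval 0.74 to 1.22), and its 2 probes gave readings 1.20 apart on the array at 1.46. RNR1 was at 0.58, 0.94, 1.19 and 1.12 (log2 ratio 0.96, interval 0.72 to 1.20). Whether RNA of a paralog bound to the probes of RNR1 and RNR3, or of RNR2 and RNR4, was not tested.

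Of the remaining genes, DUN1 was above 0 on all 4 arrays, from 0.55 to 1.09 (log2 ratio 0.86, adjusted p = 4.1e-12). PLM2 (0.46, adjusted p = 0.000239) and RNR4 (0.38, adjusted p = 0.00287) rose by less than 1.5-fold and lost the call with the Cy3 arrays alone (adjusted p = 0.104 and 0.0748). PHR1 fell 2.19-fold (log2 ratio -1.13, adjusted p = 8.21e-20), its arrays at -1.46, -0.63, -1.57 and -0.88. MAG1 did not pass, with arrays at 0.22, -0.33, 0.31 and -0.04 (log2 ratio 0.04, interval -0.20 to 0.28, adjusted p = 0.760), while its neighbour DDI1 rose 1.25.

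Dose and time were the same in the parent on the Agilent array and at 2 h on the cDNA chip, and the 2 sets of values differed for most members. RAD53 was above 0 on both and PHR1 below 0 on both, with RAD53 at 2.17 on the chip and 4.19 on the Agilent array and no overlap between their arrays. MAG1 (2.07 against 0.04) and PLM2 (2.15 against 0.46) were high on the chip only, and RNR1 had opposite signs (-0.77 against 0.96), again with no overlap of arrays. DUN1 was higher on the Agilent array, also without overlap (-0.35 to 0.23 on the chip, 0.55 to 1.09 on the Agilent array). RNA fraction, labelling, probe type and cultures all differed between the platforms and cannot be told apart, and the tables were normalized separately, so no test was made across them.

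**Figure D2:**
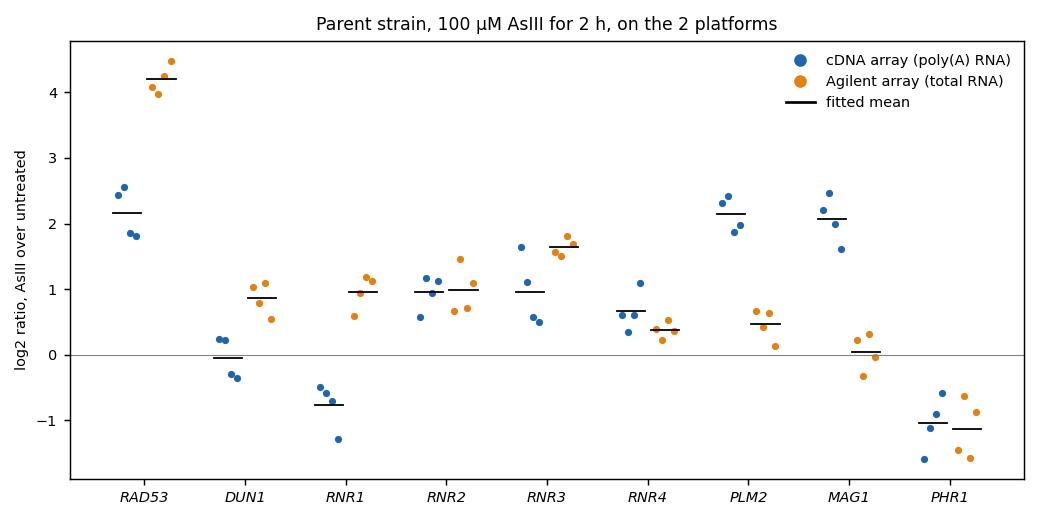
Log2 ratio (AsIII over untreated, vertical axis) of each gene (horizontal axis) after 100 μM AsIII for 2 h in the parent, with the 4 arrays of each platform as points and the fitted mean as a bar. RAD53, RNR1 and DUN1 lie higher on the Agilent array and MAG1 and PLM2 higher on the cDNA chip, with no overlap of arrays, and PHR1 lies below 0 on all 8 arrays.

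The RAD53 response in Yap1-null and on the arrays labelled Cad1-null was not called different from that of the parent. In Yap1-null, 7 of the 9 genes were called, 5 up and 2 down, against 66.6% of all genes (30.5% up and 36% down), and on those labelled Cad1-null 7, 6 up and 1 down, against 68% (31.9% up and 36% down). RAD53 stood at 4.04 and 4.37 in Yap1-null and at 4.20 and 4.73 in Cad1-null, ranks 15 and 18, and its difference from the parent was 0.01 (95% interval -0.40 to 0.42) and 0.27 (-0.14 to 0.68). RNR3 (1.49 and 1.28), DUN1 (1.12 and 1.15) and PHR1 (-1.46 and -1.31) also differed from the parent by less than the threshold of the test, their intervals reaching at most 0.78 from 0 in either direction.

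RNR1 was called higher than in the parent in both. It stood at 2.03 and 2.11 in Yap1-null and at 1.81 and 1.74 on the arrays labelled Cad1-null, in each case above all 4 parent arrays, whose highest was 1.19. The difference from the parent was 1.11 in Yap1-null (adjusted p = 4.44e-06), where 3 of the 9 genes were called, 1 higher and 2 lower, against 12.8% of all genes (5.39% higher and 7.36% lower). It was 0.82 for the arrays labelled Cad1-null (adjusted p = 0.0057), where RNR1 was the 1 gene of the 9 called against 4.23% of all genes (1.75% higher and 2.48% lower), and there the call was lost with either dye alone (adjusted p = 0.402 for Cy3 and 0.167 for Cy5) and with each array as a replicate (adjusted p = 0.173).

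In Yap1-null the small-subunit gene RNR2 and the glycosylase gene MAG1 were lower than in the parent. RNR2 was at -0.30 and 0.17, below all 4 parent arrays, with a difference of -1.05 (adjusted p = 1.79e-05). MAG1 was at -0.60 and -0.98 and fell after AsIII in this strain (log2 ratio -0.79, adjusted p = 1.2e-05), with a difference of -0.83 from the parent (adjusted p = 0.00138). DDI1 was lower too, by 1.02 relative to the parent (difference -1.02, adjusted p = 3.82e-05). Both calls against the parent were lost with each array as a replicate (adjusted p = 0.0701 for RNR2 and 0.0604 for MAG1), and that of MAG1 with the Cy3 arrays alone (adjusted p = 0.113).

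Without Rpn4, the transcriptional activator of the proteasome genes, the RAD53 response was smaller, and so was that of all genes. Of all genes 7.81% rose and 6.77% fell at least 2-fold in this strain, against 11.5% and 13.8% in the parent. After AsIII, 6 of the 9 genes were called, 4 up and 2 down, against 54.3% of all genes (24.4% up and 29.9% down), and 3 differed from the parent, all lower, against 39% (21.3% higher and 17.7% lower). RAD53 stood at 2.52 and 2.60, a 5.89-fold rise in place of 18.3-fold, with a difference of -1.64 (adjusted p = 8e-13). Both arrays lay below all 4 of the parent, and RAD53 still ranked 56 of 5598. For the reductase genes RNR3 and RNR2 no difference was called, with RNR3 at 1.44 and 1.52 (difference -0.16, 95% interval -0.58 to 0.25) and RNR2 at 1.02 and 1.50 (difference 0.28, interval -0.14 to 0.69). The 2 probes of RNR3 read 0.87 apart on the first of these arrays.

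MAG1 stood at -0.38 and -0.82 in AsIII-treated Rpn4-null (difference from the parent -0.64, adjusted p = 0.00837), and DDI1 at -0.14 in place of 1.25 (difference -1.38, adjusted p = 2e-09). The MAG1 difference was lost with each array as a replicate (adjusted p = 0.073) and with the Cy3 arrays alone (adjusted p = 0.0975). RNR1 was at 0.38 and 0.33, and its difference of -0.61 was called (adjusted p = 0.0137) but lost when array number entered as a replicate block (-0.41, adjusted p = 0.177), with each array as a replicate (adjusted p = 0.0679) and with either dye alone (adjusted p = 0.0661 for Cy3 and 0.145 for Cy5). Array numbers 3 and 4 occur only in the AsIII-treated parent, so this block shifted every null-strain value by an amount set by the parent's arrays alone. Calls that change under it cannot be read as results about the null strains. Under that block RNR1 and RNR4 passed as rises after AsIII in this strain (0.55 and 0.31, adjusted p = 0.0373 and 0.0102), and PLM2 as lower than in the parent (-0.52, adjusted p = 0.022). In the main fit these were at 0.35 (adjusted p = 0.0703), 0.25 (adjusted p = 0.218) and -0.44 (adjusted p = 0.0807).

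The Arr1-null strain differed most, and its response over all genes was smaller too. Of all genes 5.57% rose and 6.13% fell at least 2-fold there, against 11.5% and 13.8% in the parent. After AsIII, 5 of the 9 genes were called, 3 up and 2 down, against 50.1% of all genes (23.2% up and 26.9% down), and 7 differed from the parent, 5 lower and 2 higher, against 54.1% (28.6% higher and 25.5% lower). RAD53 stood at 1.59 and 1.62, a 3.03-fold rise, 2.59 below the parent on the log2 scale (difference -2.59, 95% interval -3.01 to -2.18). Its 2 probes read 0.89 apart on the second of these arrays. RNR3 was at 0.33 on both arrays (difference -1.31, adjusted p = 4.09e-09). It was not called as a rise in the main fit (adjusted p = 0.0979). It was when array number entered as a replicate block (0.44, adjusted p = 0.0199), a value shifted by the parent's arrays as above.

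RNR1 fell instead of rising. It stood at -1.16 and -1.17 in Arr1-null where all 4 parent arrays were above 0.5, a 2.24-fold fall after AsIII and a difference of -2.12 (interval -2.54 to -1.71). DUN1 (0.10, difference -0.76, adjusted p = 0.000896) and PLM2 (-0.26, difference -0.72, adjusted p = 0.00164) were also lower than in the parent and were not called after AsIII in this strain. RNR2 rose, at 0.44 and 0.88, a call lost with each array as a replicate (adjusted p = 0.0669). Its difference of -0.32 was not called (adjusted p = 0.185), except as shifted by the block (-0.40, adjusted p = 0.0482).

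Both repair genes were higher than in the parent. MAG1 rose in Arr1-null, at 1.01 and 0.78, above all 4 parent arrays (difference 0.85, adjusted p = 0.000174), and Arr1-null was the only one of the 5 strains in which a rise of MAG1 was called on this array, although with the Cy5 arrays alone a rise was also called in the parent (0.27, adjusted p = 0.036). PHR1 fell less, at -0.92 and -0.18 (log2 ratio -0.55, adjusted p = 0.00406), a fall not called with the Cy3 arrays alone (-0.18, adjusted p = 0.481) or with each array as a replicate (adjusted p = 0.232). Its difference of 0.58 (adjusted p = 0.0124) was lost under the block (0.49, adjusted p = 0.0783), with the Cy3 arrays alone (adjusted p = 0.0856) and with each array as a replicate (adjusted p = 0.292). All 4 strain differences use the same parent arrays and are not independent of each other.

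**Figure D3:**
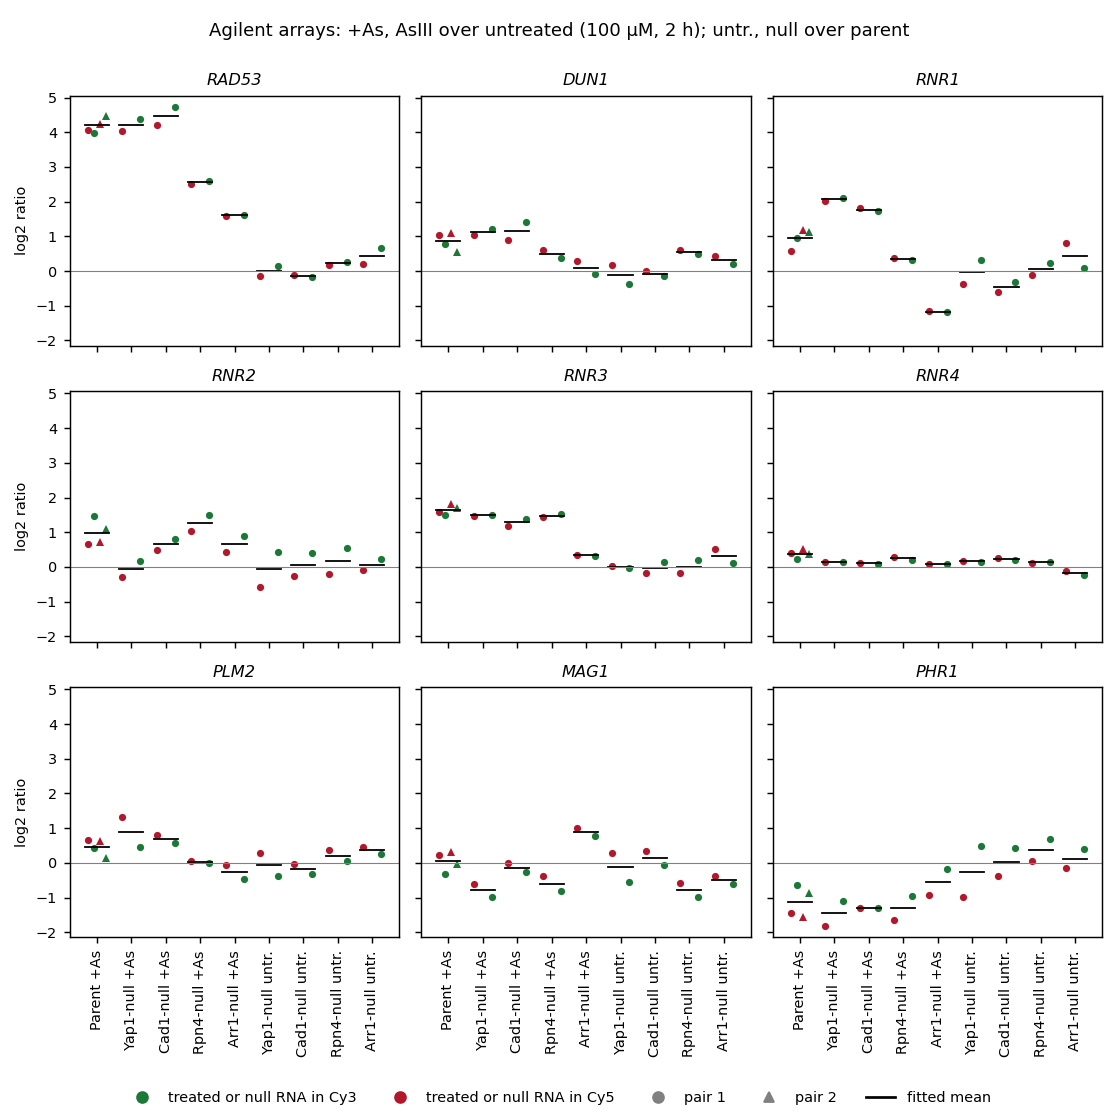
Log2 ratio (vertical axis) of each gene on each Agilent array by strain (horizontal axis), first for AsIII over untreated RNA (100 μM, 2 h) and then for untreated null over parent RNA, with the dye of the treated or null RNA as colour, the dye-exchange pair as point shape and the fitted mean as a bar. RAD53 falls from about 4 in the parent, Yap1-null and Cad1-null to 2.56 in Rpn4-null and 1.60 in Arr1-null, and RNR1 ranges from 2.07 in Yap1-null to -1.17 in Arr1-null.

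**Figure D4:**
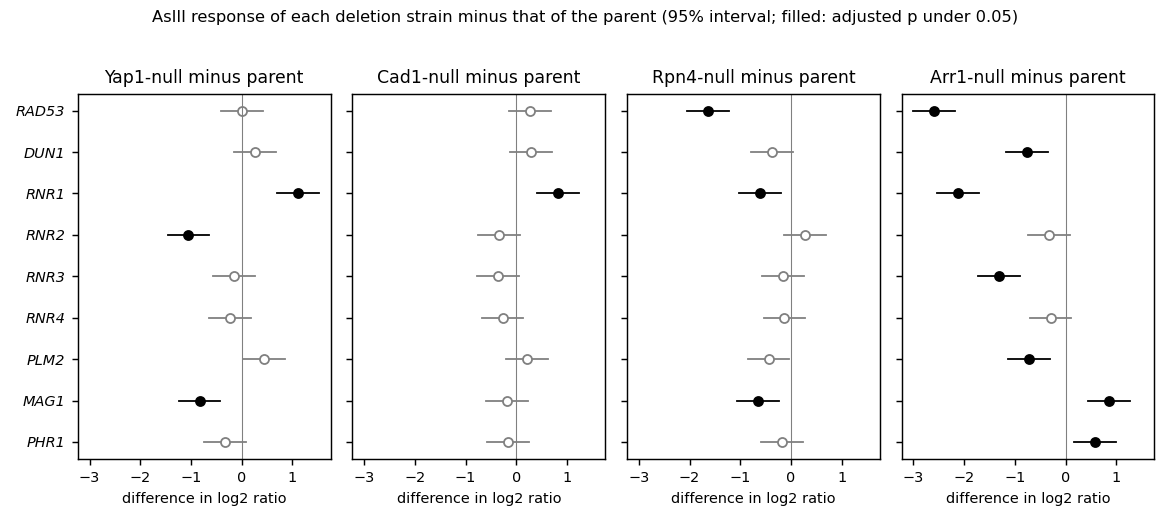
AsIII response of each null strain minus that of the parent (difference in log2 ratio, horizontal axis) for each gene (vertical axis), with bars for the 95% interval and filled points for an adjusted p under 0.05. RNR1 is called in all 4 strains, higher in Yap1-null and Cad1-null and lower in Rpn4-null and Arr1-null. Its calls in Cad1-null and Rpn4-null were lost with either dye alone.

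Without AsIII the 9 genes differed little between strains. None was called in untreated Yap1-null (3.88% of all genes called, 2.59% higher and 1.29% lower) or Cad1-null (2.68%, with 1.71% and 0.965%), with unadjusted 95% intervals that excluded 0 only for RNR1 in Cad1-null (log2 ratio -0.45, adjusted p = 0.216); in both strains the dyes opposed each other over all genes, as given above. In untreated Rpn4-null, where 21.9% of all genes were called (10.9% higher and 11% lower), DUN1 was higher at 0.60 and 0.49 (adjusted p = 0.0105, and 0.132 with the Cy3 arrays alone) and MAG1 lower at -0.58 and -0.98 (adjusted p = 7.72e-05). MAG1 was thus below the parent before AsIII and fell further with it in this strain.

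In untreated Arr1-null, where 23.4% of all genes were called (11.8% higher and 11.5% lower), 3 of the 9 passed, all by less than 1.5-fold. RNR1 was higher at 0.81 and 0.08 (adjusted p = 0.0439), RAD53 higher at 0.19 and 0.68 (adjusted p = 0.0496) and MAG1 lower at -0.37 and -0.60 (adjusted p = 0.0252). None of these 3 calls held with the Cy3 arrays alone (adjusted p = 0.814, 0.0843 and 0.0814). RNR3 also passed when array number entered as a replicate block (0.42, adjusted p = 0.0425). The AsIII-treated parent's arrays alone moved that value up from 0.31, so the call is no result about untreated cells. The calls of RNR1, RAD53 and MAG1 were also lost with each array as a replicate (adjusted p = 0.145, 0.0772 and 0.142). Those of RAD53 (0.19) and MAG1 (-0.37) were lost with the Cy5 arrays alone, where DUN1, RNR3 and PLM2 gained a call. RAD53 was lost with common genes only (adjusted p = 0.0507). In the main fit the 3 genes thus differed from the parent before AsIII in the opposite direction to the difference in their AsIII response, by calls that several alternatives undid.

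Dye offsets of constant sign ran through PHR1, RNR2, MAG1 and PLM2. PHR1 read lower with the treated or null RNA in Cy5 than in Cy3 in 8 of the 9 Agilent groups, by 0.56 to 1.48, and by 0.02 in AsIII-treated Cad1-null, and RNR2 read lower in Cy5 in all 9, by 0.30 to 1.00. MAG1 and PLM2 read lower in Cy3 in all 9, with Cy3 minus Cy5 from -0.82 to -0.23 for MAG1 and from -0.86 to -0.06 for PLM2. In the AsIII-treated parent the sign of MAG1 followed the dye, above 0 on both Cy5 arrays and below 0 on both Cy3 arrays. The offset cancels in the mean of a dye exchange, and in the AsIII comparisons PHR1 remained below 0 in both dyes in every strain.

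Other genes of the checkpoint were followed as a list on the cDNA chip. Of 23 further checkpoint genes (sensors, mediators, phosphatases and fork proteins), 1 rose at 1 mM, the histone chaperone ASF1 (log2 ratio 1.17), and none fell. Of all genes 9.69% rose and 7.09% fell there. After 2 h at 100 μM none rose and 2 fell, CSM3 (-1.97) and ELG1 (-1.60), where 3.75% of all genes rose and 2.18% fell. The list had a median of -0.33 against -0.06 for all genes. MEC1, the sensor kinase upstream of RAD53, stood at 0.25, -0.04 and 0.01 at 1 mM, at 2 h and in the parent on the Agilent array, not called in any. In that parent comparison 10 of the 23 rose and 8 fell, where 34.7% and 42.7% of all genes did, so the share called was near that of all genes.

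Among the regulators of the reductase, none of 11 was called at 1 mM or at 2 h on the chip, where 16.8% and 5.94% of all genes were. In the parent on the Agilent array 7 of 12 rose and 4 fell, where 34.7% and 42.7% of all genes did. In the difference of Arr1-null from the parent 2 of the 12 were higher and 2 lower (median 0.05 against 0.04 for all genes). Of all genes 28.6% were higher and 25.5% lower in that difference. SML1 and HUG1 were taken from this list after their values were seen. In the parent SML1, the protein inhibitor of the enzyme, fell (log2 ratio -1.36, against -0.88 on the chip at 2 h, adjusted p = 0.25), and HUG1, a small Rfx1-repressed inhibitor, rose (0.83). SML1 fell likewise in Yap1-null (-1.31), Cad1-null (-1.30) and Rpn4-null (-1.03) and was not called in Arr1-null (-0.28, difference 1.08, adjusted p = 1.71e-06). HUG1 fell in Arr1-null (-0.72), 1.55 below the parent (difference -1.55, adjusted p = 2.71e-12).

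Of 15 genes on the chip that are known for induction by DNA damage, 4 rose at 1 mM (median of the list 0.78 against 0.02 for all genes, of which 9.69% rose) and 3 at 2 h (median 1.17 against -0.06, with 3.75% of all genes up), led by RPN4 (3.11 and 2.80) and the peroxiredoxin TSA1 (2.00 and 2.84), which belong to the proteasome and oxidative stress responses. In the parent on the Agilent array 13 of 16 rose and 1 fell (median 0.90 against -0.10), where 34.7% of all genes rose and 42.7% fell. Of 19 recombination genes 5 rose at 1 mM (9.69% of all genes did), with RDH54 (2.86), MMS4 (2.69) and RAD59 (2.30) highest, and 14 rose and 4 fell in the Agilent parent (34.7% and 42.7% of all genes), with RDH54 at 3.43. Of 22 excision repair genes, the class of MAG1, 1 rose and 1 fell at 1 mM, below the shares of all genes (9.69% and 7.09%), and 10 rose and 9 fell in the Agilent parent, near those of all genes (34.7% and 42.7%). Of 11 damage tolerance genes 1 rose at 1 mM, the ubiquitin-conjugating enzyme gene RAD6 (2.04), which also rose at 2 h (1.59) and in the Agilent parent (2.40).

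Genes of the G1-to-S transition, to which RNR1 and PLM2 belong by their timing, were followed as a list of 29. In the Agilent parent 21 rose and 1 fell (median 0.57 against -0.10 for all genes, of which 34.7% rose and 42.7% fell). In Yap1-null 23 rose and 1 fell (median 0.69, with 30.5% of all genes up and 36% down), and in Cad1-null 21 and 1 (0.75, with 31.9% and 36%). In Rpn4-null 12 rose and 2 fell (0.35, with 24.4% and 29.9%), and in Arr1-null 3 and 9 (-0.16, with 23.2% and 26.9%). In the strain differences the list did not always move with RNR1. In Yap1-null, where RNR1 was higher, 3 of the 29 were higher and 1 lower (median 0.12 against 0.07 for all genes). Of all genes 5.39% were higher and 7.36% lower there. For Cad1-null, where RNR1 was also higher, none was higher and 1 lower (0.16 against 0.05, with 1.75% and 2.48% of all genes). In Rpn4-null, where RNR1 was lower, none was higher and 6 were lower (-0.17 against 0.06, with 21.3% and 17.7% of all genes). In the difference of Arr1-null from the parent none of the 29 was higher and 20 were lower (median -0.69, with 28.6% of all genes higher and 25.5% lower), among them YOX1 (-3.35), POL30 (-2.99) and POL1 (-2.28), and 10 of 14 late-cycle genes were lower and 2 higher (median -1.23). On the cDNA chip at 2 h, where RNR1 was at -0.77, the G1-to-S list had a median of -0.64 (1 up and 3 down of 29). The late-cycle list had one of -1.33 (5 down of 14), and of all genes 3.75% were up and 2.18% down. The part of the cell cycle in the values of RNR1, RNR3, RAD53 and PLM2 was not tested.

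**Figure D5:**
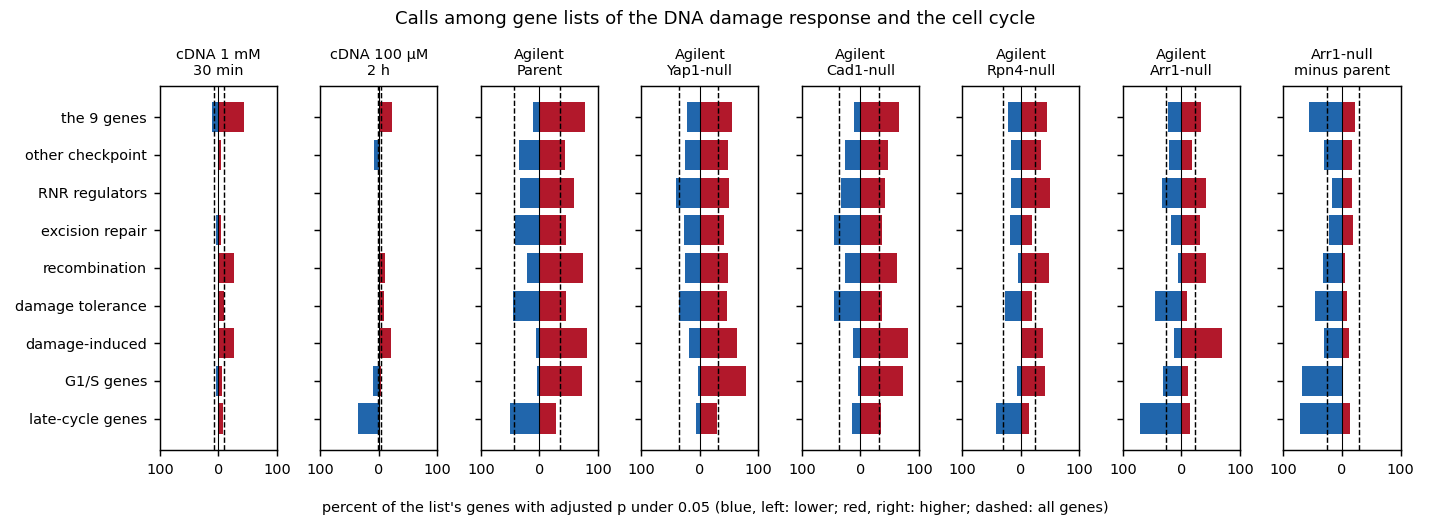
Percent of the genes of each list called higher (red, right) or lower (blue, left) in 8 comparisons, with dashed lines at the percent of all genes called in each direction. The G1-to-S list extends past the line of all genes on the right in the Agilent parent (21 of 29), Yap1-null and Cad1-null, and on the left in the difference of Arr1-null from the parent (20 of 29).

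Over the 13 conditions of both platforms, which include the untreated strain comparisons and share RNA and arrays, the members did not share a single pattern. The range of r over all pairs of genes was not computed, so the values below have no background beside them. RAD53 and RNR3 ran together (Pearson r = 0.93 across conditions), RAD53 and PHR1 opposed each other (r = -0.81), DUN1 ran with RNR1 (r = 0.82), RNR2 with RNR4 (r = 0.75) and RNR4 with PLM2 (r = 0.70). RAD53 also ran with DUN1 (r = 0.72), and PHR1 opposed RNR3 (r = -0.78) and RNR2 (r = -0.72). MAG1 had no r above 0.45 with any other member, and its lowest were with RNR1 (r = -0.59) and DUN1 (r = -0.50). Among the 5513 genes on both platforms, the patterns most like RAD53 were those of MRP2 (r = 0.98), MAM1 (0.98) and RAD6 (0.98), and those most like RNR3 were MTR4 (0.97), MEI4 (0.96) and YFR057W (0.96).

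RNR1 was nearest to GAR1 (0.96), HTS1 (0.95) and POL30 (0.95), the last of which codes for the replication clamp PCNA. MAG1 was nearest to the proteasome ATPase genes RPT6 (0.93) and RPT1 (0.91) and to RAI1 (0.91), and PLM2 to MET3 (0.94), the first enzyme of sulfate assimilation, IPP1 (0.90) and STR3 (0.90). PHR1 was nearest to ARP6 (0.97), LDB16 (0.96) and GLG2 (0.95), DUN1 to BFR1 (0.94), MNN9 (0.93) and ARI1 (0.93), RNR2 to RDS3 (0.89), GIP1 (0.89) and SFA1 (0.88), and RNR4 to YLR326W (0.93), YGR153W (0.92) and MAY24 (0.92).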

How the data were processed

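The values analysed were those the authors deposited for 40 two-colour arrays. For the 20 cDNA arrays the deposited values were log2 ratios normalized by the authors with a method and software not given in the sources used here. For the 20 Agilent arrays they were log10 ratios from Agilent Feature Extraction, limited by the authors' software to 100-fold either way, and these were converted to log2. In both tables the authors had already turned ratios of both dye orientations the same way, which was checked on the deleted genes for the untreated Agilent arrays (negative in both dyes) and on the correlation between dyes over all genes for the cDNA arrays. Array ratios carry no counts, so depth could not be read from them. The number of culture pairs or dye exchanges is a limit on the precision, since arrays of the same pair share their RNAs.

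Probes were named from the platforms' annotation (5577 of 6720 cDNA and 9202 of 10807 Agilent probes had a gene), and probes of a gene were averaged. The arrays of a culture pair or dye exchange were averaged to 1 replicate. Each platform was fitted with limma 3.58.1 (lmFit and eBayes, R 4.3.3) over all conditions, two-sided, with Benjamini-Hochberg adjustment over all genes. Residual degrees of freedom were 1 on each platform, with a prior SD of 0.311 and 4.28 prior degrees of freedom on the cDNA chip and a prior SD of 0.172 common to all genes on the Agilent array, where it alone set the SE. The fits were tested on simulated data. Alternatives were arrays as replicates with and without array number as a replicate block, a single dye, robust moderation and median centring. Others were the median of probes, common genes only and the methods' rules. Each cDNA array was also left out, and each pair at 1 mM and in the AsIII-treated parent, but no single Agilent array. Deviations from group means of same-numbered Agilent arrays correlated at r of 0.48 or more in all 72 pairs of arrays (median 0.74). Those of cDNA arrays correlated at -0.11 or more, and no pairing by number was taken for them. On the Agilent array the number marks the dye orientation, and arrays of the same dye but another number had a median of 0.67. The correlation thus could not tell a pairing by number from the dye, and the block was kept as an alternative only.

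All 9 members were named in every condition. Of the other genes, those with the largest ratio in a list, MAG1's neighbour DDI1, PLM2's paralog TOS4 and the 3 most correlated genes were named, and MEC1, SML1, HUG1 and RAD6 were chosen for their role or after their values were seen. The members and gene lists were chosen with earlier results of these data known.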

Additional observations from a re-analysis of the deposited data

Results flagged for a closer look

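The AsIII response of a null strain differed from that of the parent for 14 values of the 9 genes, by a contrast in the limma fit with adjusted p under 0.05. Arr1-null held 7 of them, RAD53 (difference in log2 ratio -2.59), RNR1 (-2.12), RNR3 (-1.31), DUN1 (-0.76), PLM2 (-0.72), MAG1 (0.85) and PHR1 (0.58). Rpn4-null held RAD53 (-1.64), MAG1 (-0.64) and RNR1 (-0.61), Yap1-null RNR1 (1.11), RNR2 (-1.05) and MAG1 (-0.83), and Cad1-null RNR1 (0.82). RNR1 was thus the gene called in each null strain, and RAD53 and MAG1 were called in more than a single strain, with the same parent arrays behind every contrast. The RNR1 calls in Rpn4-null and on the arrays labelled Cad1-null were lost with either dye alone and with each array as a replicate.

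A single array stood apart within its group. RNR4 at 4 h of 100 μM read -0.30 on array 2 against 0.18 to 0.27 on the other 3, a gap of 0.842 of the group's range. Of 45 groups of 4 to 10 arrays tested, this was the 1 so marked, and chance marks about 1 in 20. RNR4 was not called at 4 h with or without it.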

How the results depend on the processing

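No direction of a called value reversed. The counts that follow are given without the share of all genes passing in the same fit, so they are no result about the 9 genes. Of the 9 genes, 8 passed at 1 mM and 8 at 2 h of 100 μM, 2 at 4 h, and 6 in each of the 3 dose and time contrasts when every array was a replicate, and with array number as a replicate block 8, 8, 2, 6, 6 and 7 passed (main counts 5, 2, 0, 0, 0 and 0). That treatment of arrays lowered the Agilent counts in AsIII-treated Arr1-null to 3, in untreated Arr1-null to 0 and in the differences from the parent to 1 in Yap1-null, 0 in Cad1-null and 1 in Rpn4-null. Cy3 arrays alone gave 0 in untreated Arr1-null, 1 in untreated Rpn4-null, and differences of 0 in Cad1-null and 1 in Rpn4-null, and Cy5 arrays alone 1 at 2 h, 2 in untreated Yap1-null and a difference of 0 in Cad1-null. Robust moderation left 1 at 2 h. The methods' rule of a ratio outside the 95% range of its array on 3 of 4 arrays, applied as 6 of 8 at 1 mM, gave 3 at 1 mM and 0 at 2 h, and an unadjusted p under 0.001 with 2-fold gave 1 at 2 h, 3 in the parent and 2 in Arr1-null with AsIII, 0 in untreated Arr1-null and Rpn4-null, and differences of 3 in Arr1-null, 0 in Cad1-null and 1 in Rpn4-null. The block changed 8 single Agilent calls, each given above, and no other Agilent call. All were in null strains, whose values it shifts by the parent's arrays alone. The numbers were not shown to pair arrays on either platform, so the block counts stand as values only. Calls lost beside those given above included that of RNR2 in AsIII-treated Cad1-null with each array as a replicate (adjusted p = 0.0507). With Cy3 arrays alone, those of DUN1 in AsIII-treated Rpn4-null (log2 ratio 0.37) and PLM2 in AsIII-treated Yap1-null (0.47) were lost too. Leaving out single cDNA arrays moved 5 values across the threshold, all to a call and all given above (PLM2 at 2 h and RNR3 at 1 mM). The 463 values left as they were include those from leaving out a pair at 1 mM or in the AsIII-treated parent. With a pair left out no spread remained to test, so those values could not cross the threshold. No single Agilent array was left out. The cause of these changes was not tested. Ratios carry no depth, and a single culture pair or dye exchange in all conditions but 1 mM and the AsIII-treated parent limits the calls.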
